A study of Caenorhabditis elegans with 6 samples.

Results

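Small RNAs were examined at genes that encode the RNA interference and small RNA machinery of Caenorhabditis elegans, that is, at the pathway's own genes. The members were named in a list of 44: RNA-dependent RNA polymerases, mutator, Dicer, ERI, nuclear RNAi, uptake and miRNA processing genes, without Argonautes, rde-11, sid-1 and eri-6. Of these, 42 are listed by name among the 42402 loci of the tables. rde-8 stands there under its sequence name ZC477.5 and was kept outside the counts, and drh-2 was not analysed here. Whole young mothers, raised at 20 °C on HT115 carrying the empty RNAi vector L4440 after synchronization by starvation, were sampled in 3 strains with 2 libraries each. The hrde-1 strain carries allele tm1200 of a gene that encodes a nuclear Argonaute of the germ line. The meg-3 meg-4 strain (alleles ax3055 and ax3052, JH3745, outcrossed) carries mutations in a pair of genes for scaffold proteins of P granules, which are germ line condensates. The triple mutant carries all 3 alleles. The wild type N2 enters only through the authors' deposited comparisons. Nothing in the labels says that the libraries of a strain came from separate cultures, so p-values measure the spread between these libraries, which may be technical.

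As background, RNA interference in worms starts when Dicer cuts double-stranded RNA into primary small RNAs. An Argonaute carries these to a target RNA, where RNA-dependent RNA polymerases, aided by mutator proteins that gather in foci beside the P granules, copy the target into abundant antisense secondary small RNAs. In the germ line many endogenous genes are targets of such secondary small RNAs, among them genes of the pathway itself, and the nuclear branch carries silencing into the nucleus through the NRDE proteins.

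The reads counted at annotated loci ranged from 2384147 to 6780320 per library, and the 42 genes took between 0.275% and 0.494% of them. As a check of the labels, meg-4 (listed as C36C9.1) held 48 and 39 reads in the hrde-1 libraries and 0 in all 4 libraries that should lack it, which allows up to 3 reads in each. meg-3 (listed as gei-12) held 52 and 22 reads in hrde-1, 0 and 0 in triple mutant libraries, and 2 and 3 in meg-3 meg-4 libraries. Reads at hrde-1 itself do not check its label, since the labels do not say what tm1200 removes. miRNA loci took 18.2% and 19.5% of reads in hrde-1 and between 28.6% and 32.1% in the other libraries, so comparisons with hrde-1 depend on what the libraries are scaled to. Replicate 2 of meg-3 meg-4 stood apart. The 6 yolk protein genes summed to 3231 RPM (reads scaled to a common library size) in it, against 273.9 in replicate 1, 79.7 to 150.9 in the triple mutant and 38.8 to 55.04 in hrde-1. Limma called 5 of the 6 yolk protein genes lower in the triple mutant than in meg-3 meg-4, and 5 of 6 higher in meg-3 meg-4 than in hrde-1. The 6 muscle genes summed to 179.5 RPM in it, against 27.7 in replicate 1, 14.1 to 15.7 in the triple mutant and 6.39 to 6.78 in hrde-1. The 8 oocyte and embryo miRNAs of the mir-35 family summed to 4948 RPM in meg-3 meg-4 replicate 1 and 13606 in replicate 2, and to between 8359 and 10911 RPM in the other 4 libraries. No marker of these lists was at 0 in every library, and the muscle miRNA mir-1 and the neuron miRNA lsy-6 were present in all of them. The part of these differences in the results was not tested. In whole worms, fewer cells of a type and fewer small RNAs per cell cannot be told apart.

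Levels are given first, as RPM after scaling the 6 libraries together with the trimmed mean of M values (TMM). Each of the 42 genes held small RNA reads in at least 5 of the 6 libraries, and 13 of them had a mean of at least 100 RPM. Per kilobase of exon, the mean level ran from 0.677 to 161.3 RPM, with a median of 14.2 RPM per kilobase, and 39 of the 42 genes lay above the median of 1.76 RPM per kilobase over 17175 protein-coding loci with a read.

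The highest levels per kilobase were at rde-4, which encodes the double-stranded RNA binding partner of Dicer (161.3 RPM per kilobase), and at nrde-2, a nuclear RNAi factor (160.7 RPM per kilobase). These lay above 97.8% of protein-coding loci. They were followed by xrn-2, a nuclear exoribonuclease that also degrades miRNAs (88.0 RPM per kilobase), the mutator helicase gene mut-14 (71.2 RPM per kilobase) and eri-3, a component of the ERI complex with Dicer (59.2 RPM per kilobase). The order of rde-4 and nrde-2 changes with the strain, since nrde-2 is the more variable. At rde-4 the level was 196.4 and 214.8 RPM in hrde-1 libraries, 214.3 and 210.5 in triple mutant libraries, and 165.9 and 163.05 in meg-3 meg-4 libraries.

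The genes for uptake and transport of double-stranded RNA held the fewest small RNAs of any role. All 4 of these genes stayed under the minimum mean of 10 RPM that was set for testing, and they are the only listed genes that did so. sid-2, a membrane protein of the intestine, held 4 and 2 reads in hrde-1 libraries, 2 and 1 in triple mutant libraries, and 8 and 5 in meg-3 meg-4 libraries. sid-5, an endosomal protein, held 0 and 1, 1 and 3, and 4 and 5 reads in the same order. The floor of 3 reads came to between 0.436 and 1.41 RPM per library, so most of these values are at or near it. sid-3, a tyrosine kinase, was at 7.11 and 5.13 RPM in hrde-1 libraries, 7.41 and 4.69 in triple mutant libraries, and 4.56 and 5.82 in meg-3 meg-4 libraries. rsd-3, an endomembrane protein, was at 10.02 and 10.5, 5.06 and 3.28, and 7.59 and 4.62 RPM in the same order. sid-1, the uptake channel that the list leaves out, held between 350.9 and 2686 RPM.

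**Figure D1:**
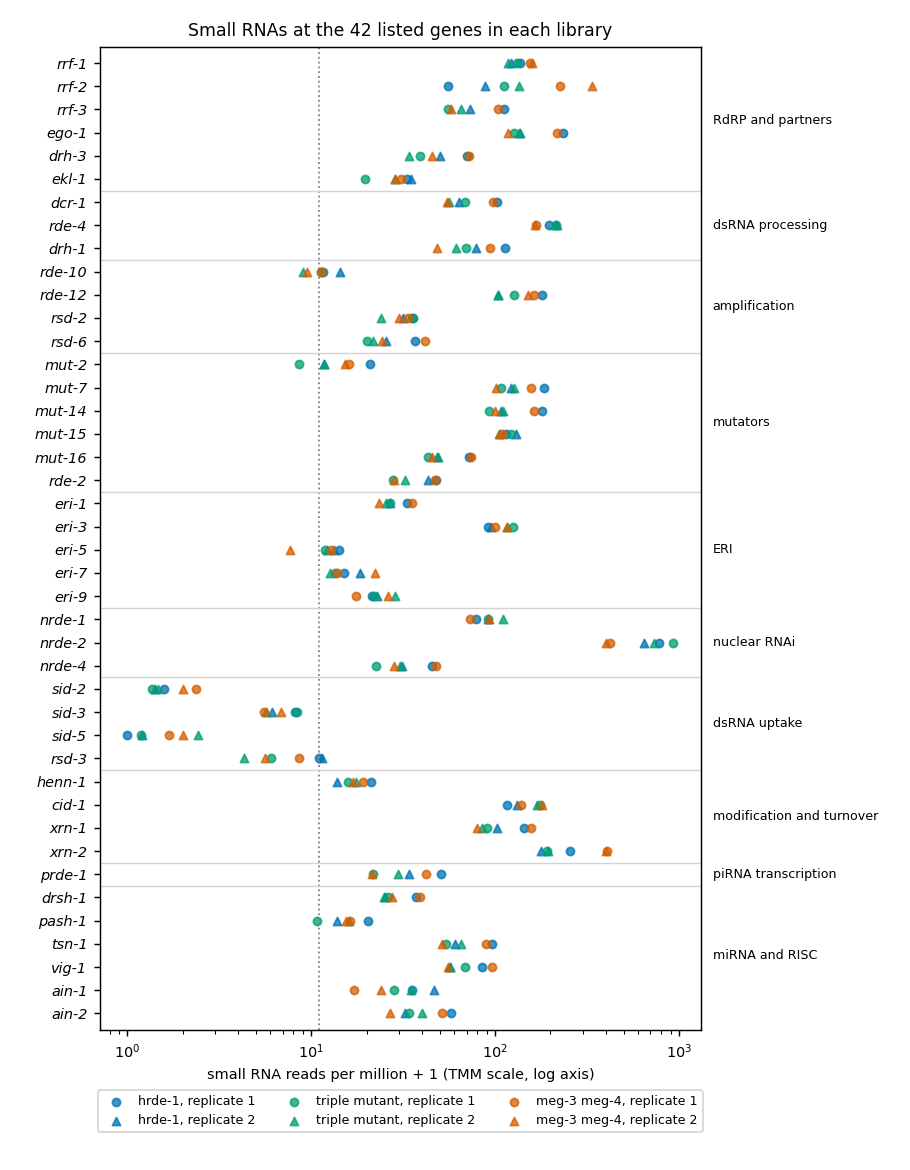
Small RNA level of each of the 42 genes in each of the 6 libraries, in RPM plus 1 on a log axis, with genes grouped by role, colours for strains and shapes for replicates. The dotted line marks the minimum mean of 10 RPM for testing, and only the 4 uptake genes have a mean below it.

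The RNA-dependent RNA polymerase gene rrf-2 (M01G12.12, WBGene00004509) differed most between the strains. Small RNAs at rrf-2 were 54.6 and 87.5 RPM in hrde-1 libraries, 110.2 and 134.5 in triple mutant libraries, and 223.1 and 337.5 in meg-3 meg-4 libraries. The 3 strains do not overlap: hrde-1 was lowest, the triple mutant intermediate and meg-3 meg-4 highest. Meg-3 meg-4 was higher than hrde-1 by 1.97 on the log2 scale (SE 0.37, limma adjusted p = 0.00164), and this call was made under all 17 settings tried, with values from 1.06 to 2.37. Every setting shares 1 estimate of the spread among the strains, and so assumes that they vary alike. In 4 of these settings 1 of the compared strains keeps a single library, whose own spread is not seen. The call was also made in the 13 that keep both libraries of each compared strain. The triple mutant stood 1.17 lower than meg-3 meg-4 on that scale (log2 fold change −1.17, SE 0.37), which missed the threshold with limma (adjusted p = 0.0821). That difference was called under 7 of 18 settings, 1 of them with a single library in a compared strain, among them scaling to library totals and leaving out either hrde-1 library. With a single meg-3 meg-4 library, assumed to vary like the other strains, it was −1.60 without replicate 1 (limma adjusted p = 0.00427) and −0.87 without replicate 2 (limma adjusted p = 0.217). The triple mutant against hrde-1 gave 0.81 (SE 0.37, limma adjusted p = 0.260), and −0.30 when libraries were scaled to miRNA reads. The neighbouring gene Y47H10A.5 held between 1655 and 6140 RPM. It was higher in the triple mutant than in hrde-1 (1.29, limma adjusted p = 0.0252), and was not called in the other 2 comparisons.

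Among the authors' deposited calls, rrf-2 was the only one of the 42 genes with an adjusted p under 0.05 in all 3 comparisons. Its log2 fold change there was −1.62 in hrde-1 over N2 (adjusted p = 4.7e-07), −0.89 in the triple mutant over N2 (adjusted p = 8.2e-05) and −1.27 in triple mutant over meg-3 meg-4 (adjusted p = 0.0168). The last 2 share their triple mutant libraries, and whether both N2 comparisons use the same N2 libraries was not checked. In the authors' deposited tables, the value over N2 minus the value over meg-3 meg-4 leaves 0.37 for meg-3 meg-4 over N2 at rrf-2, against 2.65 at rde-11 and 2.18 at sid-1. These are differences between separately scaled tables, given with no test.

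The other polymerase genes held to a narrower range. rrf-1, which makes secondary small RNAs mainly in the soma, was at 136.0 and 121.6 RPM in hrde-1 libraries, 131.2 and 117.2 in triple mutant libraries, and 153.9 and 158.4 in meg-3 meg-4 libraries. ego-1, the germ line polymerase whose gene lies next to rrf-1, was at 231.6 and 135.97 RPM in hrde-1 libraries, 125.96 and 134.1 in triple mutant libraries, and 217.4 and 116.9 in meg-3 meg-4 libraries. At ego-1 the replicates of hrde-1 and of meg-3 meg-4 differ from each other by more than the strain means do. rrf-3, which makes the primary small RNAs of the ERI pathway, ranged from 54.6 to 111.2 RPM. drh-3, a Dicer-related helicase of the polymerase complexes, was at 69.5 and 49.1 RPM in hrde-1 libraries, 38.1 and 32.8 in triple mutant libraries, and 70.9 and 44.4 in meg-3 meg-4 libraries. Both triple mutant libraries lay below the other 4 at drh-3. The log2 fold change there was −0.65 (SE 0.35, limma adjusted p = 0.441) against meg-3 meg-4 and −0.71 (SE 0.35, limma adjusted p = 0.313) against hrde-1. The latter was −0.39 without hrde-1 replicate 1 and −1.10 without replicate 2. It was called with scaling to miRNA reads alone (−1.81, limma adjusted p = 0.0151). Under that scaling 35 of the 38 listed genes tested were called lower, and the median of all loci was −1.27. The authors' deposited table for triple mutant over N2 called drh-3 lower (−0.71, adjusted p = 0.0390). The Tudor domain partner ekl-1 ranged from 18.6 to 33.7 RPM with no call. The polymerase genes are paralogs, and how the authors counted reads with several positions is not given in the sources used here, so reads may be shared among them.

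Among the nuclear RNAi genes the highest level was at nrde-2 (T01E8.5, WBGene00011333), whose product is brought to nascent transcripts by nuclear Argonautes. Small RNAs at nrde-2 were 777.8 and 644.5 RPM in hrde-1 libraries, 931.6 and 734.03 in triple mutant libraries, and 420.04 and 400.4 in meg-3 meg-4 libraries. All 4 libraries that lack hrde-1 were higher than both meg-3 meg-4 libraries. With limma the triple mutant minus meg-3 meg-4 was 1.01 on the log2 scale (SE 0.32, adjusted p = 0.0824), and meg-3 meg-4 minus hrde-1 was −0.79 (SE 0.32, adjusted p = 0.132). The first of these was called under 3 of 18 settings (DESeq2, a minimum mean of 50 RPM, and the replicate block), and lay between 0.77 and 1.18. The second was called under 2 of 17 settings, scaling to totals (−0.98, limma adjusted p = 0.0305) and to miRNA reads (−1.71, limma adjusted p = 0.00165), and was −0.44 without hrde-1 replicate 1. In that comparison the median of all loci was −0.34 with totals and −1.06 with miRNA reads. The authors' deposited tables called nrde-2 higher in hrde-1 over N2 (1.06, adjusted p = 0.00226) and in the triple mutant over N2 (1.21, adjusted p = 2.7e-09), while their value over meg-3 meg-4 was 0.96 (adjusted p = 0.0684).

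The other NRDE genes held fewer small RNAs. nrde-1 was at 77.5 and 90.6 RPM in hrde-1 libraries, 90.9 and 109.2 in triple mutant libraries, and 71.9 and 91.6 in meg-3 meg-4 libraries, and only the authors' deposited table for triple mutant over N2 called it (0.81, adjusted p = 0.00335). nrde-4 ranged from 21.5 to 46.6 RPM, and was called in none of the comparisons. The neighbours of nrde-2 in the reference annotation are mrps-14, at 19.1 to 55.9 RPM, and atad-3, at 14.8 to 39.2 RPM. Neither was called with limma in any strain comparison.

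At xrn-2 (Y48B6A.3, WBGene00006964) the order was the opposite of that at nrde-2. Small RNAs at xrn-2 were 254.8 and 175.8 RPM in hrde-1 libraries, 189.8 and 192.2 in triple mutant libraries, and 405.4 and 398.0 in meg-3 meg-4 libraries. Both meg-3 meg-4 libraries lay above the other 4, and hrde-1 and the triple mutant overlap. The triple mutant minus meg-3 meg-4 was −1.07 on the log2 scale (SE 0.34, limma adjusted p = 0.0802), called under 7 of 18 settings and between −1.31 and −1.03. Meg-3 meg-4 minus hrde-1 was 0.92 (SE 0.34, limma adjusted p = 0.0867), and −0.0015 with scaling to miRNA reads. It was called under 3 of 17 settings, among them the fit without hrde-1 replicate 1 (1.39, limma adjusted p = 0.0279), and was 0.65 without hrde-1 replicate 2. The authors' deposited tables called xrn-2 lower in triple mutant over meg-3 meg-4 (−1.13, adjusted p = 0.0137) and over N2 (−0.70, adjusted p = 0.00107), and gave −0.43 in hrde-1 over N2 (adjusted p = 0.423). An annotated noncoding RNA shares exon sequence with xrn-2 on the same strand, so its reads cannot be told apart from those of xrn-2. xrn-1, the cytoplasmic counterpart, ranged from 79.1 to 156.3 RPM with no call.

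**Figure D2:**
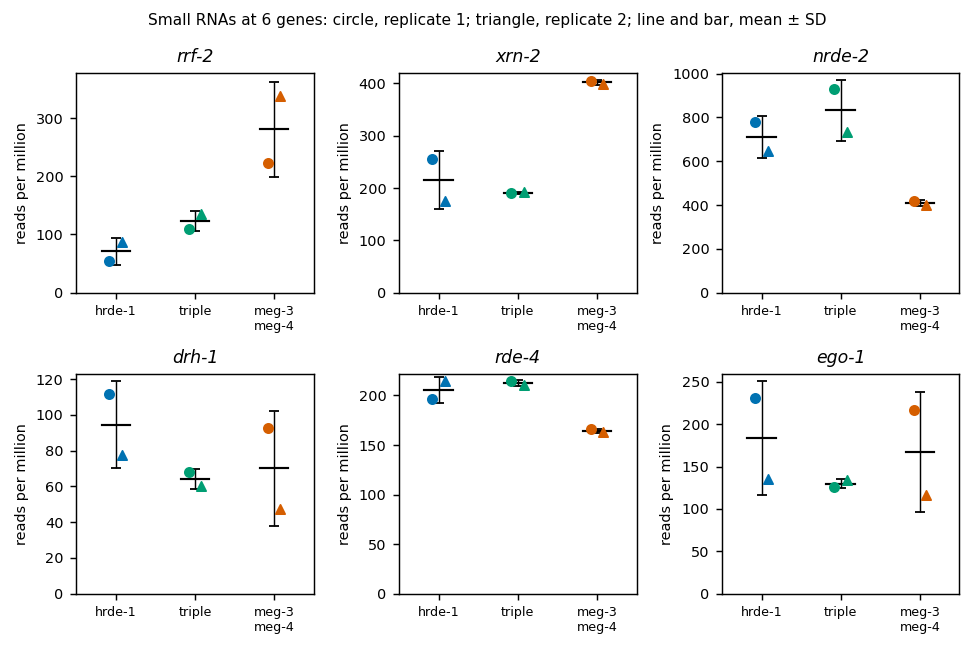
Small RNA levels in RPM at 6 genes in the 3 strains, with each library as a point and the mean ± SD (n = 2) as line and bar. rrf-2 and xrn-2 are highest in meg-3 meg-4 and nrde-2 and rde-4 lowest there, while at drh-1 and ego-1 the replicates of hrde-1 and of meg-3 meg-4 lie farther apart than any pair of strain means.

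The comparison of triple mutant and meg-3 meg-4 libraries asks what loss of hrde-1 does in a strain without MEG-3 and MEG-4. Only the meg-3 meg-4 strain is labelled as outcrossed, so loss of hrde-1 and a difference in strain history cannot be told apart. Of the 38 genes that passed the filter, limma called 0 at an adjusted p under 0.05, against 7.91% of the 6469 loci tested (4.95% higher and 2.97% lower). At an unadjusted p under 0.05, 1 gene was higher, nrde-2, against 9.54% of loci, and 2 were lower, rrf-2 and xrn-2, against 6.29%. The edgeR test called 0 and the DESeq2 test 2 (nrde-2 and xrn-2). The genes tested had a median log2 fold change of −0.24, and all loci tested one of −0.04. The strains did not overlap with the triple mutant higher at 4 of the 38 genes, against 23.1% of all loci, and with it lower at 10, against 19.6%. Over all loci 320 were called higher and 192 lower, a split that became 214 and 227 with scaling to totals. The authors' deposited table called rrf-2 and xrn-2 lower, that is, 2 of 40 genes with an adjusted p, and called 4.33% of all its loci (2.39% higher and 1.94% lower).

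No other gene of the list passed an unadjusted p under 0.05 in this comparison. drh-3, given above, and mut-2 (−0.64) were the next lowest values. ain-1 and rde-4 gave the next highest values after nrde-2. ain-1, a GW182 protein of the miRNA silencing complex, was at 34.4 and 45.6 RPM in hrde-1 libraries, 27.3 and 33.7 in triple mutant libraries, and 16.03 and 22.9 in meg-3 meg-4 libraries. Every meg-3 meg-4 library was lower than every other library at ain-1. The triple mutant minus meg-3 meg-4 came to 0.64 (SE 0.33, limma adjusted p = 0.405), and meg-3 meg-4 minus hrde-1 to −1.01 (SE 0.33, limma adjusted p = 0.0515). The latter was called under 4 of 16 settings, and was −0.67 without meg-3 meg-4 replicate 1. rde-4 gave 0.37 in the triple mutant minus meg-3 meg-4 (SE 0.32, limma adjusted p = 0.736), although both triple mutant libraries lay above both meg-3 meg-4 libraries. The SE of a log2 fold change at the 38 genes ranged from 0.32 to 0.39, which limits what 2 libraries a strain can show.

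**Figure D3:**
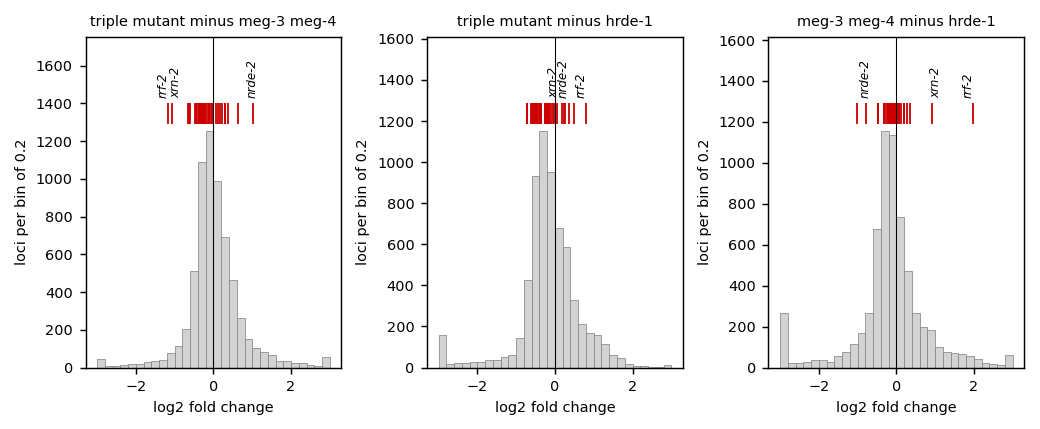
Log2 fold changes of the 6469 loci tested, as grey bars in bins of 0.2, and of the 38 tested genes of the list, as red ticks, in the 3 strain comparisons. The end bars hold every locus beyond the axis, and rrf-2 lies at 1.97 in meg-3 meg-4 minus hrde-1, the only value called there.

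The comparisons with the hrde-1 strain ask what loss of MEG-3 and MEG-4 adds in worms without hrde-1, and how the meg-3 meg-4 and hrde-1 strains differ. Between the triple mutant and hrde-1 limma called 0 of the 38 genes, against 10.3% of all loci (4.37% higher and 5.91% lower). At an unadjusted p under 0.05, 1 gene was higher (rrf-2), against 9.51% of loci, and 0 were lower, against 8.95%. The edgeR and DESeq2 tests called 0 as well. The triple mutant lay above hrde-1 without overlap at 4 genes, against 20.6% of loci, and below it at 14, against 34.2%. With scaling to miRNA reads, 35 of the 38 were called lower, beside 5043 of the 6701 loci tested under that setting. That scaling moved the median of all loci from −0.18 to −1.27, and calls over all loci from 283 higher and 382 lower to 41 and 5043. Scaling to totals gave 98 higher and 483 lower. Relative to the median of all loci, the median of the tested genes stood at −0.17, and at −0.12 with miRNA scaling. Between meg-3 meg-4 and hrde-1, 1 of the 38 genes was called, rrf-2, against 16.4% of all loci (7.02% higher and 9.38% lower). The edgeR test called the same gene, and DESeq2 called rrf-2 and xrn-2. At an unadjusted p under 0.05, 2 genes were higher (rrf-2 and xrn-2), against 11.5% of loci, and 2 lower (ain-1 and nrde-2), against 13.5%. Without overlap, 5 genes were higher, against 19.5% of loci, and 7 lower, against 24.1%. Here 454 loci were called higher and 607 lower. With scaling to miRNA reads, 168 of 6701 loci were called higher and 2897 lower. Under that setting 1 gene of the list was higher and 11 lower.

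Between the triple mutant and hrde-1, the 3 highest values were at rrf-2, cid-1 and eri-3, and the 3 lowest at prde-1, drh-3 and mut-2. cid-1, a terminal nucleotidyltransferase that acts on small RNAs, was at 114.7 and 129.8 RPM in hrde-1 libraries, 174.2 and 167.3 in triple mutant libraries, and 137.5 and 178.7 in meg-3 meg-4 libraries. The triple mutant libraries lay above both hrde-1 libraries at cid-1 by 0.48 on the log2 scale (SE 0.33, limma adjusted p = 0.503), a sign that turned with scaling to miRNA reads (−0.63). eri-3 was at 90.02 and 94.5 RPM in hrde-1 libraries, 123.8 and 115.3 in triple mutant libraries, and 98.7 and 114.9 in meg-3 meg-4 libraries. At eri-3 the value was 0.37 (SE 0.32, limma adjusted p = 0.589), and it turned to −0.062 when libraries were scaled to totals and −0.74 when scaled to miRNA reads. prde-1, which is needed for transcription of piRNA precursors, was at 49.7 and 33.1 RPM in hrde-1 libraries, 20.6 and 28.6 in triple mutant libraries, and 41.2 and 20.3 in meg-3 meg-4 libraries. mut-2, the nucleotidyltransferase that adds tails to target RNAs, was at 19.7 and 10.7 RPM in hrde-1 libraries, 7.59 and 10.8 in triple mutant libraries, and 15.02 and 14.3 in meg-3 meg-4 libraries. The triple mutant minus hrde-1 was −0.72 at prde-1 (SE 0.38, limma adjusted p = 0.365) and −0.63 at mut-2 (SE 0.38, limma adjusted p = 0.435). Without hrde-1 replicate 1 these were −0.36 and −0.15, and without hrde-1 replicate 2 they were −1.14 and −1.18.

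In the authors' deposited table for hrde-1 over N2, 4 of the 40 genes with an adjusted p were called, 3 higher and 1 lower, and the table calls 15.9% of its loci (8.75% higher and 7.19% lower). Beside nrde-2 and rrf-2 these were drh-1, a helicase related to the RIG-I family that acts in antiviral RNA interference (1.27, adjusted p = 0.00224), and prde-1 (1.07, adjusted p = 0.0317). drh-1 was at 111.7 and 77.4 RPM in hrde-1 libraries, 68.1 and 60.0 in triple mutant libraries, and 92.8 and 47.4 in meg-3 meg-4 libraries. drh-1 has a close relative, drh-2, so the origin of its reads is uncertain. The median log2 fold change of the 40 genes in the authors' deposited table was 0.33, against 0.07 over all its loci, with 29 values above 0 and 11 below. Over all its loci 7452 values lay above 0 and 6424 below. The hrde-1 replicates behind it differ at many of these genes, as given below, so no direction for the list is drawn.

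In the authors' deposited table for triple mutant over N2, 8 of the 40 genes were called, 3 higher and 5 lower, and the table calls 18.8% of its loci (8.77% higher and 10% lower). The share of the genes, 20.0%, is close to that background. Higher were nrde-2, nrde-1 and cid-1 (0.60, adjusted p = 0.0151). Lower were rrf-2, xrn-2, drh-3, mut-2 (−1.22, adjusted p = 0.0195) and rde-12, a helicase that works in amplification (−0.82, adjusted p = 5.5e-04). rde-12 itself was at 177.9 and 103.1 RPM in hrde-1 libraries, 126.1 and 103.1 in triple mutant libraries, and 162.01 and 149.2 in meg-3 meg-4 libraries. The authors' deposited table gave the 40 genes a median of −0.03, against −0.02 over all its loci.

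**Figure D4:**
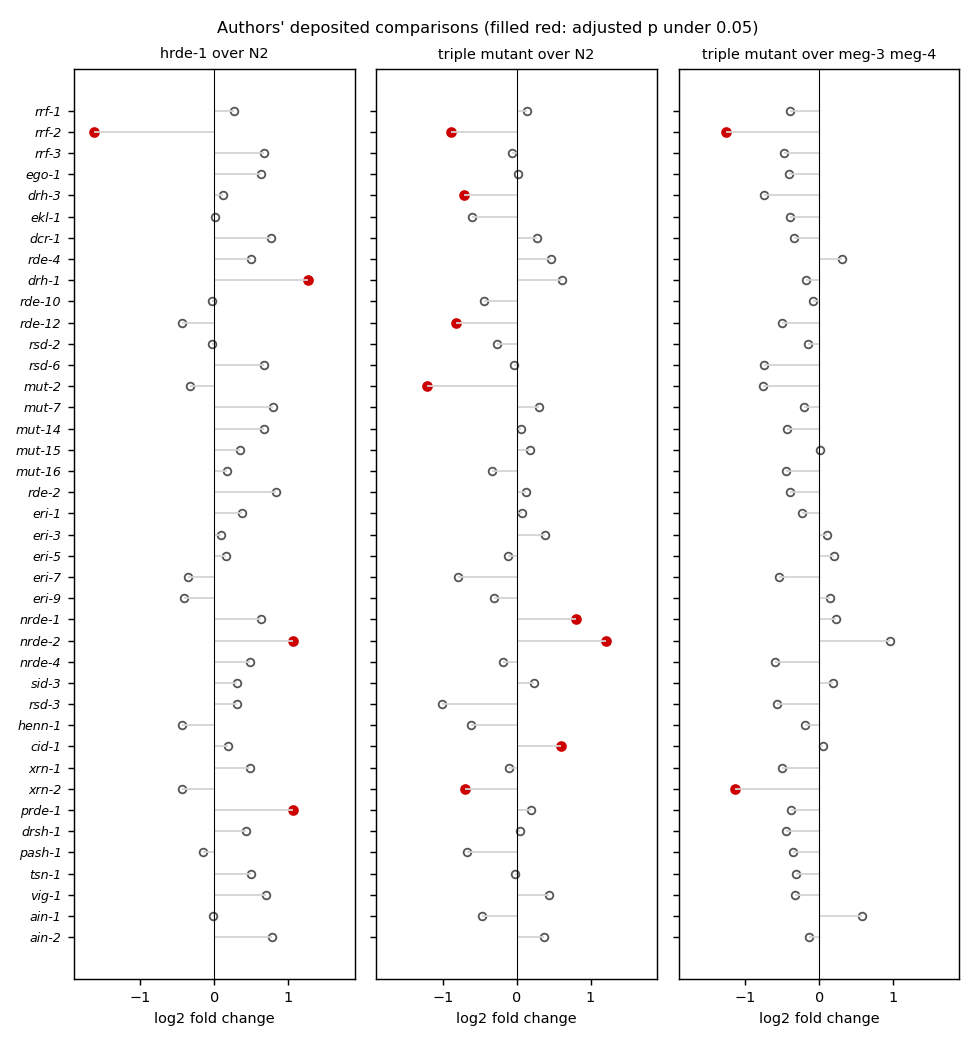
Log2 fold changes of the 40 genes with an adjusted p in the authors' 3 deposited comparisons, with calls filled in red. rrf-2 is called lower in all 3 and nrde-2 higher in both comparisons with N2.

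The replicates of a strain differed at many of these genes together. At the 38 genes tested, hrde-1 replicate 1 exceeded replicate 2 by a median of 0.51 on the log2 scale, against −0.06 over all loci, and it was the higher of the pair at 27 genes. In meg-3 meg-4 the median was 0.38, against 0.06 over all loci, with replicate 1 higher at 30 genes. In the triple mutant it was −0.07, against −0.03, with replicate 1 higher at 17. A gap over 1.5-fold in favour of replicate 1 was seen at 10 genes in hrde-1 (26.3%, against 16.6% of all loci) and at 18 in meg-3 meg-4 (47.4%, against 26.4%), and at 7 in both. In the triple mutant no gene of the 38 had a gap of that size in either direction. Of all loci, 6.17% had such a gap in favour of replicate 1 there.

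Genes with such gaps in both strains came from several roles. dcr-1, which encodes Dicer, was at 100.8 and 62.4 RPM in hrde-1 libraries, 67.95 and 54.8 in triple mutant libraries, and 96.9 and 53.8 in meg-3 meg-4 libraries. mut-14 was at 178.4 and 106.2, 91.1 and 109.7, and 162.5 and 98.8 RPM in the same order, and the exonuclease gene mut-7 at 183.5 and 120.4, 106.4 and 126.1, and 156.6 and 100.6 RPM. ego-1, rrf-3, ain-2 and tsn-1, the last a nuclease subunit of the silencing complex, showed gaps of the same sign. With gaps of any size counted, replicate 1 was higher in both strains at 26 genes and lower in both at 7. The latter were rrf-2, ain-1, eri-7, eri-9, nrde-1, cid-1 and eri-3, with rrf-2 at −0.67 in hrde-1 and −0.60 in meg-3 meg-4. Across the 38 genes the gaps of the 2 strains had a Pearson correlation of 0.73, given as a description, since genes are not replicates and share the same 4 libraries. Over all loci the gaps in hrde-1 fell into 2 humps, on either side of 0. The markers named above also differ between the meg-3 meg-4 replicates, and their part in these gaps was not tested.

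**Figure D5:**
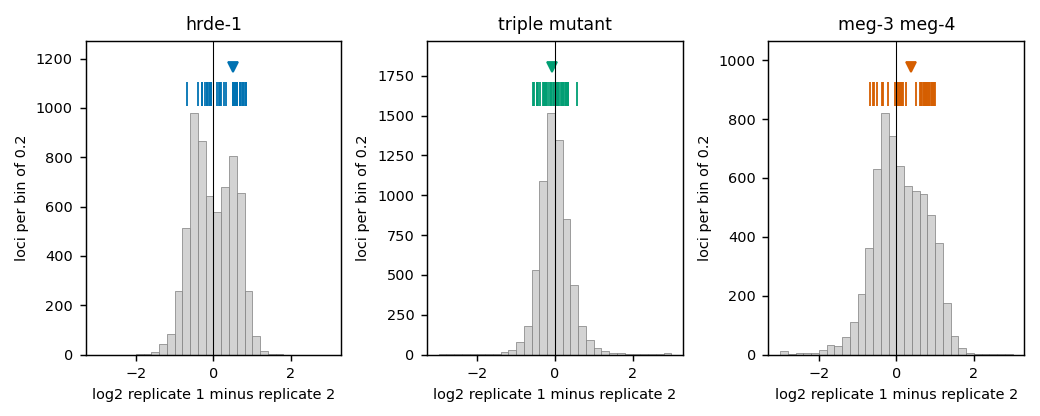
Log2 difference between replicate 1 and replicate 2 of each strain, with all 6469 loci as grey bars in bins of 0.2 and the 38 genes as coloured ticks, and a triangle at their median. The median of the genes lies at 0.51 for hrde-1, −0.07 for triple mutant libraries and 0.38 for meg-3 meg-4.

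The medians of the strain comparisons changed when 1 of these libraries was left out. The median of the tested genes in the triple mutant minus hrde-1 was −0.35 with all libraries, 0.01 without hrde-1 replicate 1 and −0.67 without hrde-1 replicate 2. In the triple mutant minus meg-3 meg-4 it was −0.08 without meg-3 meg-4 replicate 1 and −0.49 without replicate 2. In meg-3 meg-4 minus hrde-1 it was −0.08 with all libraries, 0.38 when hrde-1 replicate 1 was left out, and 0.17 when meg-3 meg-4 replicate 2 was. No direction is given for the list as a whole for this reason.

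By role, the mutator genes had 0 calls with limma in any strain comparison (6 tested), as had the ERI genes (5), the amplification factors (4), the genes for double-stranded RNA processing (3) and those for miRNA processing and silencing complexes (6). The nuclear RNAi genes (3), those for small RNA modification and turnover (4) and prde-1 (1) also had 0, so rrf-2 held the only call. The shares of all loci called were 7.91%, 10.3% and 16.4% in the 3 comparisons, and counts of 0 in roles this small cannot be told apart from them. Over all 38 tested genes the shares called were lower, at 0%, 0% and 2.63%, a difference that was not tested. The scaffold gene mut-16 ranged from 42.3 to 73.1 RPM, mut-15 from 103.6 to 128.4 RPM, and rde-2, whose product binds MUT-7, from 26.7 to 46.6 RPM. Among the amplification factors rde-10, which acts in a complex with RDE-11, was at 10.6 and 13.4 RPM in hrde-1 libraries, 10.3 and 7.97 in triple mutant libraries, and 10.3 and 8.43 in meg-3 meg-4 libraries, where rde-11 itself ranged from 356.2 to 3304 RPM. The Drosha gene drsh-1 ranged from 23.9 to 37.97 RPM and its partner pash-1 from 9.76 to 19.3 RPM. The methyltransferase gene henn-1 ranged from 12.7 to 20.04 RPM. In the reference annotation, exons of rrf-3, rde-10, rsd-6, mut-2, eri-5, nrde-1, nrde-4, sid-2, henn-1, xrn-1, drsh-1 and vig-1 overlap a gene on the other strand, and without the strand setting reads of both cannot be told apart. rde-8 (ZC477.5), a ribonuclease of the mutator foci, was at 12.7 to 17.7 RPM in the 6 libraries, with no call.

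eri-7 lies next to eri-6 in the reference, and the transcripts of both are joined by trans-splicing into the mRNA of a single helicase. Small RNAs at eri-7 were 14.1 and 17.5 RPM in hrde-1 libraries, 12.5 and 11.7 in triple mutant libraries, and 12.8 and 21.1 in meg-3 meg-4 libraries. At eri-6 they were 2481 and 3322, 9008 and 9789, and 3254 and 3300 RPM in the same order, higher in the triple mutant than in meg-3 meg-4 (1.52, SE 0.27, limma adjusted p = 0.00265), whereas eri-7 gave −0.42 (limma adjusted p = 0.715). Whether the 2 genes differ in this was not tested.

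The other genes of the pathway, counted from lists that hold no member, were counted in the same way. Of 21 Argonaute genes 9 passed the filter, and limma called 0 in each strain comparison, where it called 7.91%, 10.3% and 16.4% of all loci. Of 13 piRNA factors 11 passed and of 9 germ granule RNA factors 7 passed, also with 0 calls. Of 6 genes for RNA editing and nonsense-mediated decay, smg-6 was lower in the triple mutant than in hrde-1 (−1.36) and lower in meg-3 meg-4 than in hrde-1 (−1.17). At an unadjusted p under 0.05 limma gave 1 lower Argonaute of 9, hrde-1 itself (−0.93), in the triple mutant against meg-3 meg-4, against 6.29% of loci. Small RNAs at hrde-1 were 600.8 and 455.6 RPM in hrde-1 libraries, which also carry tm1200. They were 351.3 and 296.7 RPM in triple mutant libraries, and 614.3 and 621.7 RPM in meg-3 meg-4 libraries. The labels do not say what tm1200 removes, and its part in these values was not tested. In meg-3 meg-4 against hrde-1 limma gave 1 lower Argonaute of 9 and 1 lower piRNA factor of 11, against 13.5% of loci. In the authors' deposited table for hrde-1 over N2, 4 of 19 Argonaute genes were higher (csr-1, ppw-2, prg-1 and wago-1) and 1 was lower (sago-1), against 8.75% and 7.19% of its loci. Higher there were also the piRNA factors tofu-3 and tofu-4 (2 of 13), the germ granule gene pgl-1 (1 of 9) and smg-6, while smg-1 was lower (1 of 6 each way). The authors' deposited table for triple mutant over N2 called ppw-2, prg-1 and wago-1 higher and ergo-1 and hrde-1 lower among 19 Argonaute genes, against 8.77% and 10% of its loci. It called smg-1 lower, and 0 piRNA factors and 0 germ granule genes. In the authors' deposited table over meg-3 meg-4, 0 genes of these 4 lists were called.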

How the data were processed

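RNA was treated with 5′ polyphosphatase and built into libraries with a TruSeq kit, per the labels' protocols. The submitters' processing notes name DESeq2, HTSeq, Bowtie2 and cutadapt, and build ce10. Their versions, strand setting and handling of reads with several positions are not given in the sources used here, so values at paralogs and overlapping genes are uncertain. The authors deposited 3 tables of fpm values, per the file headers: RPM in the table that sets triple mutant over N2, and a scaled signal in the other 2. The log2 fold changes and adjusted p-values in them are the authors'. The 4 N2 library columns and 6 mean columns were not used.

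Every value above 0 (100%) was a whole multiple of what 1 read is worth in its column, within 0.001 read, so whole reads were recovered. Reads of the triple mutant differed at 0 loci between its 2 tables. Reads of the 6 libraries were scaled together by TMM (edgeR 4.0.16) to RPM, and log2(RPM + 1) of loci with a mean of at least 10 RPM was fitted with limma 3.58.1 (intensity trend, 3 groups), with Benjamini-Hochberg adjustment over all 6469 loci and calls under 0.05. Fold changes are on this scale, which understates low loci. edgeR's quasi-likelihood test and DESeq2 1.42.0 were run on the recovered reads. The method was also run on simulated counts with known fold changes. These held no shift in miRNA share and no replicate gaps common to many genes, so neither was checked. Exon lengths and neighbours come from an annotation of WBcel235, another build than ce10, so no coordinates are given. The floors cover counting error only, while SEs and p-values measure the spread between libraries.

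The members, lists and tests were chosen with earlier results of these data known. A gene was given in every library where limma or an authors' table called it, where it was among the 3 largest rises or falls of a comparison, or where it was among the 5 highest or 5 lowest levels per kilobase. dcr-1, ego-1, rrf-1, mut-7 and eri-7 were added after their values were seen.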

Additional observations from a re-analysis of the deposited data

How the results depend on the processing

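For the triple mutant against meg-3 meg-4, calls over all loci stayed within 1.5 times of 512 in every alternative except a minimum mean of 50 RPM, which gave 328 and tests fewer loci. Calls among the listed genes moved from 0 to 2 with scaling to totals, 1 with DESeq2 size factors, 3 with a minimum of 50 RPM and 2 with the DESeq2 test, and to between 0 and 2 when single libraries were left out. For the triple mutant against hrde-1, 665 calls became 5084 with scaling to miRNA reads (35 in the list, from 0), 405 with a minimum of 50 RPM, and 385 to 991 with single libraries left out (385 without hrde-1 replicate 1, 421 without triple mutant replicate 1). For meg-3 meg-4 against hrde-1, 1061 calls became 3065 with miRNA scaling and 566 with a minimum of 50 RPM. There the list moved from 1 call to 3 with totals, 12 with miRNA scaling and 2 with DESeq2, and to between 1 and 2 with single libraries left out, always with rrf-2 among them. The cause was not tested. Among the genes picked by the rule for the comparison, signs turned, with no call on all libraries, at eri-3 (−0.062 with totals, −0.74 with miRNA reads), cid-1 (−0.63) and rrf-2 (−0.30) in the triple mutant against hrde-1, and at cid-1 (−0.56) and xrn-2 (−0.0015) in meg-3 meg-4 against hrde-1, the last 4 with miRNA scaling. Over all 38 tested genes, the sign differed between settings at 18, 22 and 29 in the 3 comparisons, at no gene called on all libraries. Scaling to totals moved the median of all loci from −0.04 to −0.27 in the first comparison.

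Replicate 1 did not deviate from its strain mean in a common way across all 3 strains. Deviations correlated at 0.56 between hrde-1 and meg-3 meg-4, but at −0.19 and −0.11 between the triple mutant and these. The hrde-1 and meg-3 meg-4 replicates thus share a pattern, and whether their numbers mark a true pairing was not tested. With the number as a replicate block, all loci gave 646, 831 and 1251 calls in the 3 comparisons, and the list gave 3 (nrde-2, rrf-2, xrn-2), 0 and 3 (ain-1, rrf-2, xrn-2). Depth limits the uptake genes, of which sid-2 and sid-5 held at most 8 reads in a library.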
